A study of Mus musculus with 32 samples.

Results

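The genes described here, 10 members of the unfolded protein response and the integrated stress response, were followed in the developing mouse brain with and without Dhcr7, the gene of the enzyme that completes cholesterol from 7-dehydrocholesterol. They were chosen by name (Hspa5, Ddit3, Atf4, Atf3, Xbp1, Trib3, Asns, Chac1, Herpud1 and Sesn2), and all 10 were found among the 55291 gene symbols of the count tables. Polyadenylated RNA had been sequenced from 32 brain libraries of C57BL/6J mice, 4 libraries for each genotype and stage. Wild-type (WT) animals were Dhcr7+/+ and knockout (KO) animals Dhcr7-/-, a model of Smith-Lemli-Opitz syndrome, an inherited disorder of cholesterol synthesis. Both genotypes were taken at 3 embryonic stages named by day (E12.5, E14.5, E16.5) and on the day of birth (PND0), and no group received a treatment. The construction of the knockout allele, the litter and the sex of the brains are not given in the sources used here, and nothing says whether each library is 1 animal, so p-values measure only the spread between these libraries.

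The unfolded protein response is set off by misfolded protein in the endoplasmic reticulum (ER), where 3 membrane sensors (IRE1, PERK and ATF6) are held back by the chaperone BiP, the product of Hspa5. IRE1 splices Xbp1 mRNA into the form that encodes an active transcription factor. PERK is also a kinase of the integrated stress response, in which phosphorylation of the translation factor eIF2-alpha slows most protein synthesis while ATF4 protein is made. ATF4 and the factor CHOP (Ddit3) then raise genes of amino acid supply, redox balance and cell death. HMG-CoA reductase, the controlled step of sterol synthesis, sits in the same membrane, and sterol intermediates speed its removal by ER-associated degradation. Much of the control of ATF4, XBP1 and ATF6 is on translation, splicing and cleavage, which gene-level counts do not show.

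Elements that these factors are known to bind were looked for in the promoters. The matches are shown because they name the genes of the list whose promoters hold letters that these factors read. RefSeq promoter sequences (build GRCm38.p6) were at hand for all 10 genes. In the 250 bases before the annotated start, on both strands, the ER stress element (CCAAT, any 9 bases, CCACG) occurred in Hspa5 alone and in 0.113% of all 32851 promoter windows. The UPR element TGACGTG occurred in Hspa5 alone and in 1.65% of windows. The C/EBP-ATF element TGATGNAA occurred in 4 of the 10 genes, Atf3, Asns, Chac1 and Herpud1, and in 3.45% of windows. The cAMP response element TGACGTCA occurred in 0 of the 10 and in 1.55% of windows. The matches are shown here 5′ to 3′ on the strand of the gene with the matched letters in capitals. In Atf3, Chac1 and Herpud1 the C/EBP-ATF element is on the other strand, and in the ER stress element the 9 free bases stay in lower case.
Hspa5 ER stress element, chr2:34772020-34772048, plus strand: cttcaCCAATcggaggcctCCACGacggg
Hspa5 UPR element, chr2:34771922-34771950, plus strand: gggcgtagcaaTGACGTGagttgcggagg
Atf3 C/EBP-ATF element, chr1:191183425-191183454, minus strand: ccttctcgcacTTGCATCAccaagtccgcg
Asns C/EBP-ATF element, chr6:7693214-7693243, minus strand: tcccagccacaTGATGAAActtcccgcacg
Chac1 C/EBP-ATF element, chr2:119351038-119351067, plus strand: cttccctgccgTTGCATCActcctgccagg
Herpud1 C/EBP-ATF element, chr8:94386306-94386335, plus strand: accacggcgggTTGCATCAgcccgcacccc
A match describes the letters and is not a measured binding site. The GENCODE M21 gene models of Hspa5, Atf3, Asns and Chac1 begin upstream of the RefSeq starts used here. The matches in Atf3, Chac1 and Herpud1 held the same 8 letters, and that in Asns differed.

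Levels are given as CPM, which are read counts relative to the size of the library, with TMM scaling over all 32 libraries. Total counts ran from 13868087 to 28318857 per library. Dhcr7 fell in KO at every stage, with means of 67.3 CPM in WT and 21.9 in KO at E12.5, 70 and 13.2 a stage later, 62.5 and 17.1 at E16.5, and at birth 89.2 and 14.4. The groups did not overlap. All 6 neuron markers and all 6 radial glia markers were detected in every group, with summed levels of 2322 to 6143 CPM and 1041 to 2350 CPM over the libraries. Libraries that stood apart touch the results below. E12.5 KO replicate 1 had 5.64% of its counts in a ribosomal RNA gene and was the highest of its group for 8 of the 10 stress genes. E16.5 WT replicate 1 had 3.75% in that gene, against 0.36% to 0.63% in the other WT libraries of its stage. It also had the highest Xbp1 level of its group (84.7 CPM). E14.5 KO replicates 3 and 4 had 2.68% and 2.55% in that ribosomal RNA gene, against 0.87% to 1.17% in the other libraries of their stage. PND0 WT replicate 4 was the highest or the lowest of its group for all 10, had the lowest Dhcr7 level of its group (60 CPM) and held hindbrain and spinal cord markers at 3.09 CPM in sum against at most 0.279 CPM in the other WT and 0 CPM in the KO libraries of that stage. At earlier stages that sum reached 18.4 CPM in E12.5 WT replicate 1 and 5.91 CPM in E16.5 WT replicate 2. In whole brain, fewer cells of a type and less RNA per cell cannot be told apart.

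Per kilobase of transcript, Hspa5 and Atf4 were the most abundant of the 10 in WT brain. Over the 16 WT libraries the mean level was 85.7 CPM per kb for Hspa5 and 67 for Atf4. Xbp1 followed at 32.6, Asns at 17.8, Herpud1 at 14.7 and Ddit3 at 13.7 CPM per kb. Sesn2 (3.51), Chac1 (1.64), Trib3 (0.898) and Atf3 (0.646 CPM per kb) were the least abundant. The stage means separated the list into 3 tiers that did not overlap. Hspa5 and Atf4 had no stage mean below 44.8 CPM per kb, the 4 middle genes lay between 10.4 and 38.7, and the 4 low genes lay at or below 5.03. Within a tier, neighbours in the order overlapped in their stage means. Low counts limit the last tier: Atf3 had 8 to 93 counts in a library and Trib3 had 4 to 83.

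**Figure D1:**
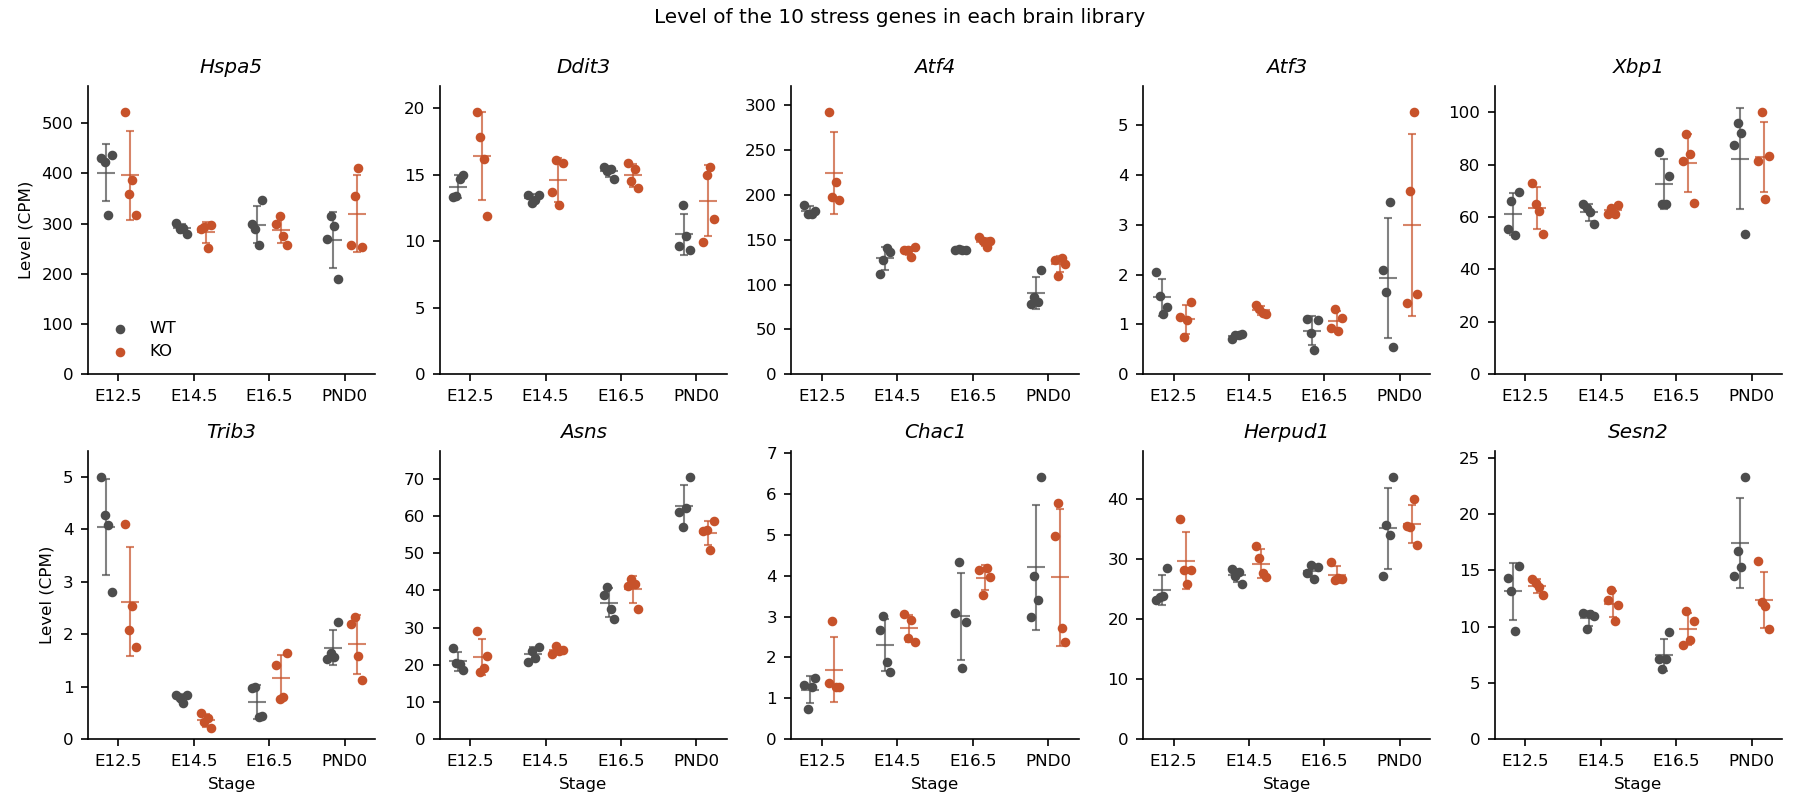
Level of each of the 10 stress genes in CPM (vertical axis, from 0, a scale per gene) at the 4 stages. Points are libraries, dashes and bars the mean and SD of 4 libraries, grey for WT and orange for KO. Asns has its highest means at PND0 and Trib3 at E12.5 in both genotypes. Atf4 in KO lies above WT without overlap at E12.5 and E16.5, where 2.53% and 6.39% of all genes do not overlap in either direction.

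In WT brain the list did not move as a block between stages. From E12.5 to E14.5, 5 of the 10 genes passed the threshold (adjusted p under 0.05, edgeR quasi-likelihood F test), as did 57.8% of all genes tested, so their share was near the background. Trib3, Atf4, Hspa5 and Atf3 fell and Chac1 rose, where 30.5% of all genes fell and 27.3% rose. From E14.5 to E16.5, 4 of 10 passed, against 57.5% of all genes: Asns, Xbp1 and Ddit3 rose (29.3% of all genes) and Sesn2 fell (28.2%). From E16.5 to PND0, 5 of 10 passed, against 53.2% of all genes: Asns, Sesn2 and Trib3 rose (26.0% of all genes) and Atf4 and Ddit3 fell (27.2%). The median log2 change of the 10 was -0.22, 0.16 and 0.38 over the 3 steps, beside -0.03, 0.01 and -0.01 for all genes. Stage and deposited table cannot be told apart, since each stage came as a table of its own.

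Hspa5, at the head of the folding arm, fell early. Hspa5 (ENSMUSG00000026864.13, chromosome 2, 34771970 to 34777547, plus strand) encodes BiP, the main ER chaperone. Its level was 431, 422, 317 and 436 CPM in the WT libraries at E12.5 and 302, 290, 292 and 279 CPM at E14.5. Every E12.5 library lay above every E14.5 library. In that step 57.8% of all genes passed the threshold, and the share of genes without overlap is not given here. The log2 change was -0.49 (SE 0.0952, adjusted p = 0.00151). At E16.5 and PND0 the means were 299 ± 36.8 and 268 ± 55.6 CPM (SD, n = 4), and neither later step passed the threshold. Xbp1 (ENSMUSG00000020484.18, chromosome 11, 5520659 to 5525893, plus strand), the factor that IRE1 activates, had WT means of 61.1, 61.9, 72.5 and 82.3 CPM at the 4 stages. Its step from E14.5 to E16.5 passed (log2 change 0.25, SE 0.083, adjusted p = 0.0186) but not without E14.5 WT replicate 4 or E16.5 WT replicate 1 (both 0.0657) or E16.5 WT replicate 4 (0.0525). Without PND0 WT replicate 4, which had the lowest Xbp1 level of its group at 53.7 CPM against 87.4 to 96, the step to birth passed too (0.31, adjusted p = 0.0161). Herpud1 (ENSMUSG00000031770.16, chromosome 8, 94386438 to 94395377, plus strand), an ER membrane protein that recruits the degradation machinery, had means of 24.7, 27.2, 28 and 35.1 CPM and no step past the threshold. Its last step missed it narrowly (log2 change 0.30, adjusted p = 0.0549), passed without PND0 WT replicate 1 (0.41, adjusted p = 0.00769) and was 0.17 (adjusted p = 0.184) without PND0 WT replicate 4. The antisense gene Gm15890, which overlaps Herpud1, had at most 4 counts in a library.

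Of the stress transcription factors, Atf4 fell in 2 steps. Atf4 (ENSMUSG00000042406.8, chromosome 15, 80255184 to 80257541, plus strand) stood at 189, 179, 179 and 182 CPM in the WT libraries at E12.5, at 112, 127, 141 and 136 CPM at E14.5, at 138, 140, 139 and 138 CPM at E16.5 and at 78.7, 86.6, 80.5 and 116 CPM at PND0. The 4 libraries of E16.5 were within 1.01-fold of each other, and replicate 4 at PND0 stood above the other 3. The first step was a log2 change of -0.52 (SE 0.0684, adjusted p = 0.000136) and the last -0.65 (SE 0.107, adjusted p = 0.000185). Erythroid markers were lower after both steps: their median summed level in WT was 3570 CPM at E12.5, 1177 CPM at E14.5, 1111 CPM at E16.5 and 223 CPM at PND0, with 2 of 6 and 5 of 5 tested markers falling. Their part in the Atf4 level was not tested. Ddit3 (ENSMUSG00000025408.15, chromosome 10, 127290774 to 127296288, plus strand), which encodes the pro-apoptotic factor CHOP, lay between 12.9 and 15.6 CPM in all embryonic WT libraries and at 9.31 to 12.7 CPM at birth. Its last step was -0.57 (SE 0.126, adjusted p = 0.00171). Its rise from E14.5 to E16.5 was small (0.22, adjusted p = 0.035) and passed in only 2 of 13 alternatives, with RLE size factors (0.0367) and without E16.5 WT replicate 4 (0.0465). Without any other 1 of the 8 libraries its adjusted p was 0.0536 to 0.08. Ddit3 overlaps Mars1, a methionyl-tRNA synthetase gene on the opposite strand with WT means of 68.5 to 90.4 CPM, and whether reads were counted by strand is not given in the sources used here. Atf3 (ENSMUSG00000026628.13, chromosome 1, 191170296 to 191218039, minus strand), a factor that ATF4 and other stress pathways induce, fell from 1.55 ± 0.369 to 0.77 ± 0.0389 CPM (SD, n = 4) between E12.5 and E14.5 (log2 change -1.02, SE 0.242, adjusted p = 0.00473). At birth its WT libraries spread from 0.547 to 3.46 CPM, a 6.33-fold range. The rise to birth missed the threshold (1.12, adjusted p = 0.06), passed without PND0 WT replicate 4 (1.44, adjusted p = 0.00549) and was 0.68 (adjusted p = 0.237) without PND0 WT replicate 3.

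The targets of ATF4 took different courses. Asns (ENSMUSG00000029752.12, chromosome 6, 7675169 to 7693254, minus strand), asparagine synthetase, held 18.5 to 24.9 CPM in WT at E12.5 and E14.5, then 32.2 to 40.8 CPM at E16.5 and 57 to 70.5 CPM at PND0. No library of an earlier group reached the later one in either of the last 2 steps, which were log2 changes of 0.71 (SE 0.0858, adjusted p = 3.34e-06) and 0.74 (SE 0.0956, adjusted p = 1.67e-05). Of all genes 57.5% and 53.2% passed in these steps, and the share without overlap is not given here. Chac1 (ENSMUSG00000027313.3, chromosome 2, 119351229 to 119354381, plus strand), which breaks down glutathione, rose from 1.2 ± 0.329 to 2.31 ± 0.644 CPM (SD, n = 4) in the first step (0.90, adjusted p = 0.0172) and stood at 4.2 ± 1.53 CPM at birth. Trib3 (ENSMUSG00000032715.9, chromosome 2, 152337422 to 152344032, minus strand), a pseudokinase that restrains ATF4 and CHOP, went the other way: it was at 5, 4.27, 4.09 and 2.8 CPM at E12.5 and at 0.689 to 0.848 CPM at E14.5. That fall was the largest change of the 10 genes in any WT step (log2 change -2.36, SE 0.23, adjusted p = 2.27e-05). Trib3 rose again to 1.53 to 2.24 CPM at birth (1.27, SE 0.36, adjusted p = 0.00832). Sesn2 (ENSMUSG00000028893.8, chromosome 4, 132492032 to 132510501, minus strand), a sestrin that curbs mTORC1 signalling when leucine is short, fell from 10.7 ± 0.662 to 7.49 ± 1.4 CPM between E14.5 and E16.5 (-0.50, SE 0.133, adjusted p = 0.00421). By birth it had risen to 17.5 ± 4.02 CPM (1.20, SE 0.177, adjusted p = 5.94e-05). From E16.5 to PND0, Atf4 fell while its known targets Asns, Trib3 and Sesn2 rose, and Ddit3 fell with it. Other known targets were mixed in that step. Of 9 further ATF4 and CHOP targets tested, 1 rose and 4 fell. Of 15 targets in amino acid synthesis and transport, 4 rose and 3 fell, when 26.0% of all genes rose and 27.2% fell.

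In the genotype comparisons, 0 of the 10 genes passed the threshold at E12.5, E14.5, E16.5 or PND0. The background was 0.0177%, 0.527%, 0.0462% and 1.44% of all genes tested, so 0 of 10 lies near those shares. At an unadjusted p under 0.05 there were 0, 2, 1 and 2 of 10, beside 4.70%, 8.73%, 11.5% and 18.0% of all genes. DESeq2 called 0, 0, 0 and 1 of them (Atf4 at PND0), and 30, 122, 150 and 921 of all genes. Means were higher in KO for 7, 8, 7 and 7 of the 10 genes, and the median log2 fold change was 0.05, 0.10, 0.13 and 0.03, beside 0.00 for all genes at each stage. These counts moved with single libraries and settings: at E12.5 it was 4 of 10 (median -0.03) without KO replicate 1 and 5 of 10 without WT replicate 3, and at PND0 it was 4 of 10 (median -0.06) with length offsets. The WT libraries of a stage serve in these comparisons and in the WT steps alike.

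**Figure D2:**
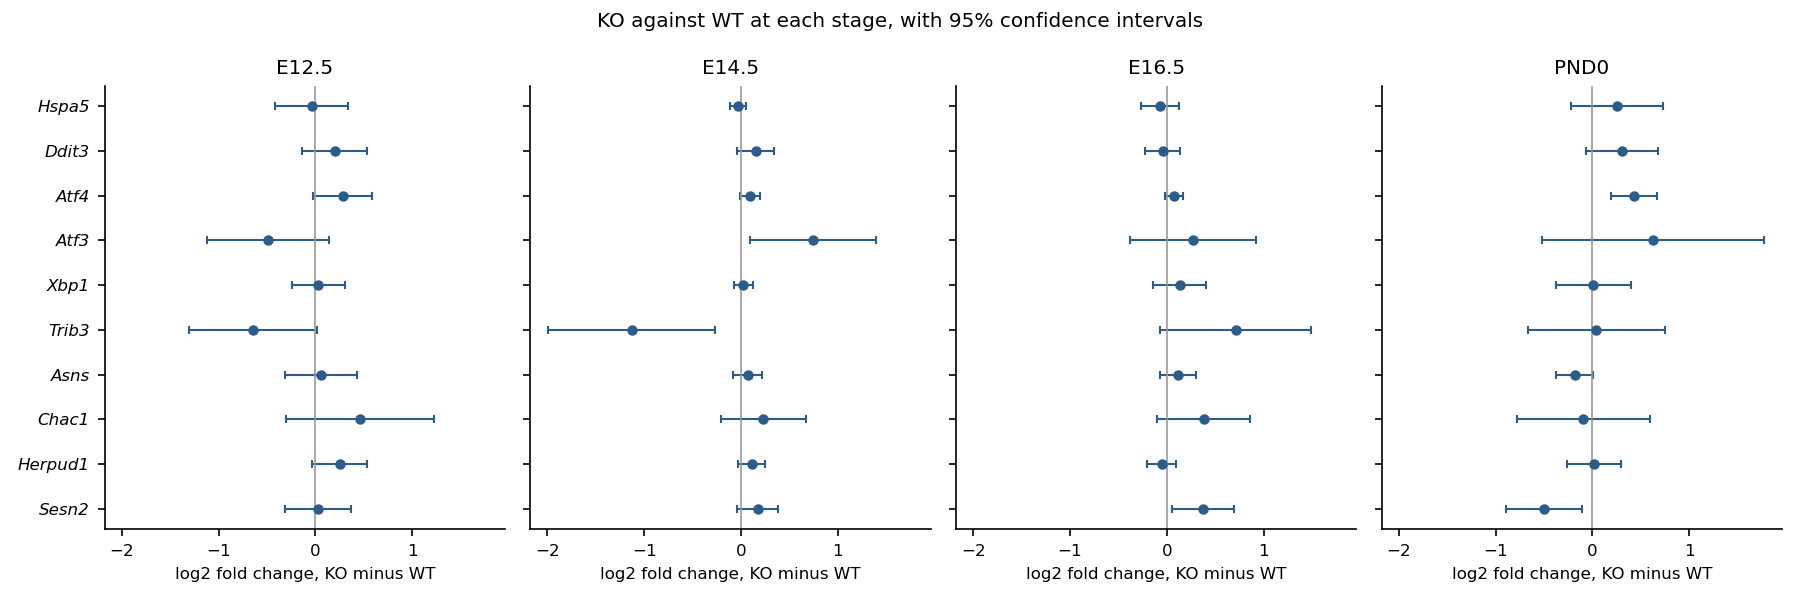
Log2 fold change of KO against WT (horizontal axis) for the 10 genes at each stage, with the 95% confidence interval from the edgeR fit (n = 4 against 4). The interval of Atf4 at PND0 runs from 0.19 to 0.67, and that of Hspa5 at E14.5, from -0.11 to 0.05, is the narrowest of all.

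Atf4 was the gene whose KO libraries lay above WT most often. At E12.5 the WT libraries were at 189, 179, 179 and 182 CPM and the KO libraries at 292, 198, 214 and 194 CPM. All KO libraries were above all WT libraries, as in either direction for 2.53% of genes at that stage, and replicate 1 stood apart above the other KO libraries. The log2 fold change was 0.28 (SE 0.133, 95% interval -0.02 to 0.58, adjusted p = 0.875), and 0.11 without KO replicate 1 (adjusted p = 0.562). At E14.5 the KO libraries, at 138, 139, 131 and 142 CPM, overlapped the WT libraries at 112, 127, 141 and 136 CPM (0.09, 95% interval -0.01 to 0.20, adjusted p = 0.634). At E16.5 the WT libraries were at 138, 140, 139 and 138 CPM and the KO libraries at 153, 148, 142 and 148 CPM, again without overlap, as for 6.39% of genes. That difference was small (0.07, SE 0.0458, 95% interval -0.02 to 0.17, adjusted p = 0.557). At PND0 the WT libraries were at 78.7, 86.6, 80.5 and 116 CPM and the KO libraries at 127, 110, 130 and 123 CPM. The other 3 KO libraries lay above every WT library, and only WT replicate 4 reached the KO range. The log2 fold change was 0.43 (SE 0.114, 95% interval 0.19 to 0.67, adjusted p = 0.0733), a fold of 1.35 (95% interval 1.14 to 1.59).

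The call on Atf4 at birth turned on 1 library and on the fit. Without PND0 WT replicate 4, the remaining WT libraries (78.7 to 86.6 CPM) lay below all KO libraries, and the log2 fold change was 0.58 (adjusted p = 0.0102). Atf4 also passed with no filter on low counts (0.44, adjusted p = 0.00019), in DESeq2 (0.43, adjusted p = 0.014), and in a fit of all 32 libraries (0.43, adjusted p = 0.0143). With offsets for transcript length it was 0.35 with an adjusted p of 0.169, and with the ribosomal RNA gene as a covariate 0.49 with 0.708. At PND0 that gene held 1.8% to 2.78% of counts in WT and 1.16% to 2.09% in KO, so the covariate partly followed genotype. With the covariate 2 of all genes passed at PND0, against 250 without it. Of the 6 erythroid markers 5 were tested at that stage, all with a higher mean in KO. Of these, 0 passed (smallest adjusted p = 0.208) and 4 had an unadjusted p under 0.05, beside 18.0% of all genes. Their summed level was 261, 197, 234 and 212 CPM in WT and 551, 228, 2261 and 629 CPM in KO replicates 1 to 4, so KO replicate 2 lay in the WT range. Atf4 was lowest of the KO libraries (110 CPM) in the replicate with the fewest erythroid transcripts and highest (130 CPM) in the one with the most. Between KO replicates 1 and 4 the order was reversed, with Atf4 at 127 and 123 CPM and erythroid sums of 551 and 629 CPM. Among the WT libraries, replicate 1 had the highest erythroid sum (261 CPM) and the lowest Atf4 level (78.7 CPM). WT replicate 4, with an erythroid sum of 212 CPM, had the highest Atf4 level (116 CPM). In the embryo the median erythroid sum was lower in KO while the Atf4 mean was higher. That median in WT and KO was 3570 and 1639 CPM at E12.5, 1177 and 1143 CPM at E14.5, and 1111 and 732 CPM at E16.5. The part of erythroid cells in the Atf4 level was not tested. Over the 4 stages, 16 of 16 KO libraries had more Atf4 than the WT mean of their stage, and 12 of 16 more than every WT library of their stage. These counts were the highest among the listed stress genes, and the share of all genes with such counts is not given here. Chac1, without a call at any stage, had 14 of 16 above the WT mean and 2 of 16 above every WT library. No test of a change of the KO effect with stage passed for Atf4 (interaction F test over 32 libraries, adjusted p = 0.391).

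The other 3 transcription factors of the list did not pass at any stage. Atf3 was at 0.714, 0.779, 0.781 and 0.805 CPM in WT and 1.4, 1.31, 1.23 and 1.2 CPM in KO at E14.5. The groups did not overlap, as for 4.77% of genes, and the log2 fold change was 0.74 (SE 0.321, 95% interval 0.09 to 1.39, adjusted p = 0.488), from 16 to 22 counts per WT and 21 to 33 per KO library. At E12.5 its mean was lower in KO (1.1 ± 0.293 against 1.55 ± 0.369 CPM, adjusted p = 0.875). At PND0, Atf3 was at 2.09, 1.65, 3.46 and 0.547 CPM in WT and 1.44, 3.67, 5.26 and 1.61 CPM in KO (0.63, 95% interval -0.52 to 1.77, adjusted p = 0.576). Its log2 fold change was 0.31 without WT replicate 4 and ran from 0.2 to 1.07 over all libraries left out in turn. The 10 immediate early genes, which mark recent cell activation, moved with it: their summed level was 147, 188, 182 and 111 CPM in WT and 169, 269, 312 and 151 CPM in KO. KO replicates 2 and 3 were highest for both, WT replicate 4 lowest for both, and the part of this in the Atf3 level was not tested. Ddit3 means in WT and KO were 14.1 and 16.4 CPM at E12.5, then 13.2 and 14.6, 15.2 and 14.9, and at birth 10.5 and 13.1 CPM. The widest of its 95% intervals for the fold, at birth, ran from 0.952 to 1.61. The counts may hold reads of the overlapping Mars1, so these intervals do not bound CHOP mRNA alone. Xbp1 log2 fold changes were 0.03, 0.02, 0.14 and 0.01, with adjusted p from 0.71 to 0.99.

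Mean BiP mRNA differed little in the embryo. Hspa5 means in WT and KO were 402 and 397 CPM at E12.5, 291 and 283 CPM a stage later, and 299 and 287 CPM at E16.5. The 95% interval of the fold was 0.749 to 1.27, 0.924 to 1.03 and 0.828 to 1.09. At E12.5, KO replicate 1 was the highest KO library at 522 CPM, and without it the log2 fold change was -0.22 (adjusted p = 0.567). At E14.5, where the biological coefficient of variation of the fit was 6.25%, an increase of more than 1.03-fold lay outside the interval of this fit. KO libraries there were at 289, 294, 251 and 297 CPM, with replicate 3 the lowest. With each library left out in turn, the log2 fold change at E14.5 ran from -0.06 to 0.01. At PND0 the spread was wider: WT libraries were at 270, 315, 296 and 189 CPM and KO libraries at 258, 356, 410 and 254 CPM (log2 fold change 0.25, 95% interval -0.22 to 0.73, adjusted p = 0.574). KO replicates 2 and 3 were high, WT replicate 4 was low, and without that WT library the log2 fold change was 0.12 (adjusted p = 0.779). The fold was 0.859 to 1.65 by the interval, so this stage and E12.5 limit a change of Hspa5 less well than E14.5. Herpud1 was at 23.1 to 28.5 CPM in WT and 25.8 to 36.7 in KO at E12.5 (0.25, 95% interval -0.04 to 0.53, adjusted p = 0.875), with 0.11 without KO replicate 1. Its later log2 fold changes were 0.11, -0.05 and 0.02, with adjusted p of 0.688, 0.827 and 0.962.

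Among the targets of ATF4, Trib3 and Sesn2 had genotype differences whose signs differed between stages. Trib3 at E12.5 was at 5, 4.27, 4.09 and 2.8 CPM in WT and 4.1, 2.08, 2.54 and 1.76 CPM in KO (log2 fold change -0.65, 95% interval -1.31 to 0.02, adjusted p = 0.875). At E14.5 it was at 0.848, 0.779, 0.689 and 0.847 CPM in WT and 0.496, 0.318, 0.409 and 0.208 CPM in KO. All KO libraries were below all WT libraries, as in either direction for 4.77% of genes at that stage. Counts were 15 to 22 in WT and 4 to 11 in KO (-1.13, SE 0.426, 95% interval -1.99 to -0.27, adjusted p = 0.368). At E16.5 the KO mean was the higher one, 1.16 ± 0.44 against 0.707 ± 0.317 CPM (0.71, 95% interval -0.07 to 1.49, adjusted p = 0.474). WT replicates 1 and 2 there, at 0.968 and 0.994 CPM, lay among the KO libraries at 0.761 to 1.64, and replicates 3 and 4, at 0.418 and 0.447 CPM, lay below them. At PND0 the means were 1.74 and 1.8 CPM. The interaction test, which asks whether the KO effect itself differed between stages, gave an adjusted p of 0.208 for Trib3, and 0.0342 without E12.5 KO replicate 1. Without that library 797 of all genes passed, against 5 with it.

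Sesn2 had the higher mean in KO at the 3 embryonic stages and the lower one at birth, without passing at any stage. At E16.5 the WT libraries were at 7.1, 6.26, 7.11 and 9.51 CPM and the KO libraries at 8.36, 11.4, 8.79 and 10.5 CPM. WT replicate 4 lay inside the KO range and the other 3 below it (log2 fold change 0.37, SE 0.15, 95% interval 0.05 to 0.69, adjusted p = 0.387). At PND0 the WT libraries were at 14.54, 16.7, 15.3 and 23.3 CPM and the KO libraries at 15.8, 12.2, 11.8 and 9.83 CPM. KO replicate 1 lay in the WT range and the other 3 lay below it (-0.50, SE 0.183, 95% interval -0.89 to -0.11, adjusted p = 0.16). Without WT replicate 4 the log2 fold change was -0.32 (adjusted p = 0.351), while a fit with all 32 libraries gave -0.50 (adjusted p = 0.0454). Its interaction test gave an adjusted p of 0.183, the lowest of the 10, where 0.0256% of all genes passed and 0 of the 10 did; with DESeq2 it was 0.0498. In the same newborn brains Atf4 had the higher and Sesn2 the lower mean in KO.

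Asns and Chac1 gave no call in KO. Asns means in WT and KO were 20.9 and 22.1 CPM at E12.5, then 22.8 and 23.9, 36.7 and 40.3, and at birth 62.7 and 55.5 CPM. The fold at birth was 0.88 (95% interval 0.769 to 1.01, adjusted p = 0.308). At E14.5 it was 1.05 (95% interval 0.948 to 1.17). Chac1, from 12 to 129 counts per library, had log2 fold changes of 0.46, 0.23, 0.38 and -0.10, and each 95% interval held 0. Without KO replicate 2, the E12.5 value was 0.09. At E16.5 its KO libraries sat together at 3.53 to 4.18 CPM and the WT libraries spread from 1.73 to 4.33 CPM.

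The rest of the pathway was measured through 6 further lists, whose genes were named for their function. In the genotype comparisons 1 gene passed, at PND0, where 1.44% of all genes did. It was Sel1l, the adaptor of the HRD1 ubiquitin ligase in ER-associated degradation. Sel1l was at 176, 168, 214 and 175 CPM in WT and 146, 142, 141 and 143 CPM in KO. The groups did not overlap, as for 11.9% of genes at that stage, and WT replicate 3 was the highest. Sel1l fell by a log2 fold change of -0.37 (SE 0.0803, adjusted p = 0.0363). The call was lost when any 1 of 7 of the 8 libraries was left out, with values of -0.38 to -0.29 and adjusted p up to 0.107. It was also lost with length offsets (-0.24, adjusted p = 0.17) and with the ribosomal RNA covariate (-0.37, adjusted p = 0.697). That covariate partly followed genotype at PND0, and 2 of all genes passed with it. At E16.5, Sel1l had the higher mean in KO (134 against 119 CPM, log2 fold change 0.16, adjusted p = 0.338).

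**Figure D3:**
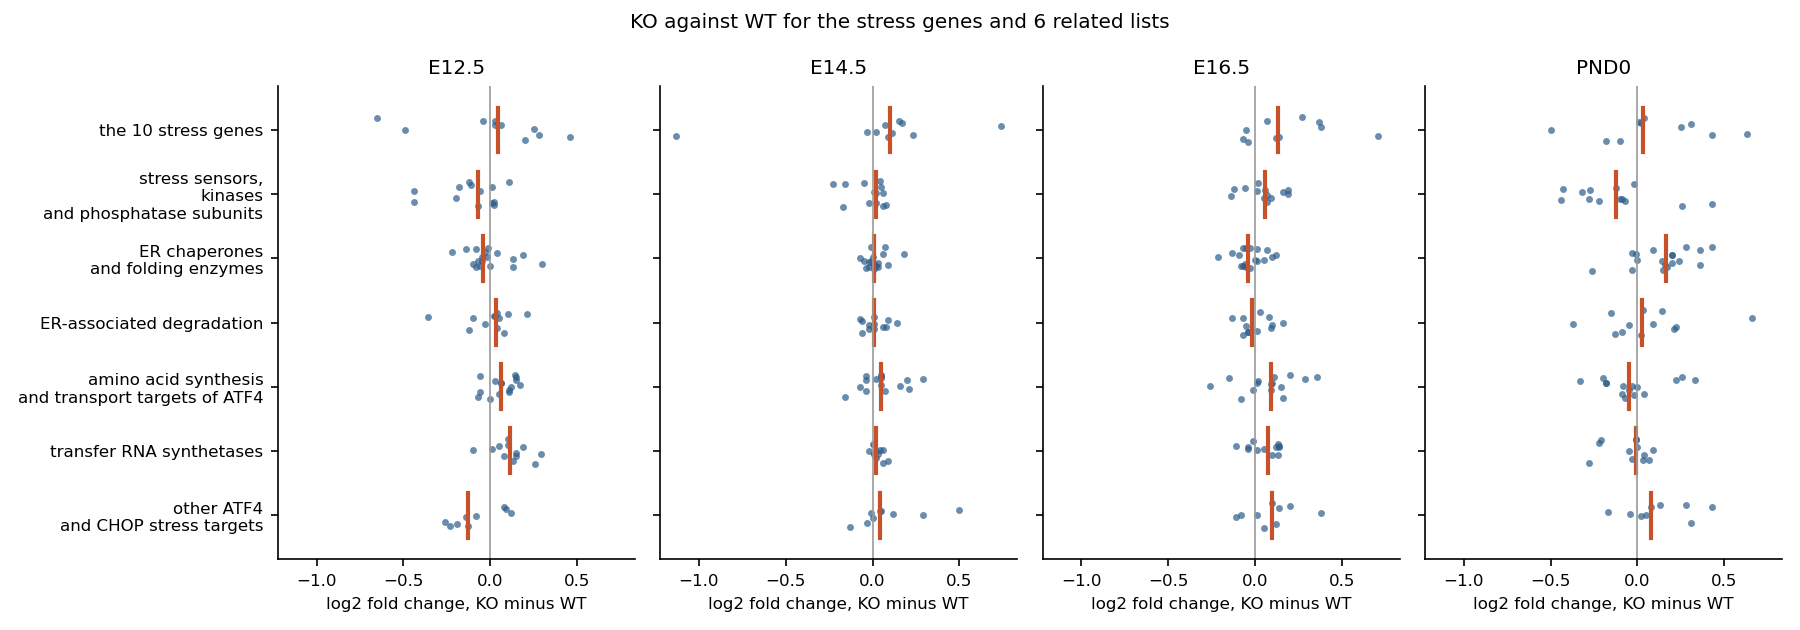
Log2 fold change of KO against WT (horizontal axis) at the 4 stages for the 10 stress genes and 6 related lists. Each point is a gene and each orange bar the median of a list, which lies between -0.13 and 0.17 in all panels.

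Among the 13 stress sensors, kinases and phosphatase subunits, 0 passed at each stage. At PND0, 6 of 13 had an unadjusted p under 0.05, beside 18.0% of all genes, and 2 of 13 had the higher mean in KO (median log2 fold change -0.12). Ern1, which encodes IRE1, was at 28.6, 24, 23.4 and 25.8 CPM in WT and 21.1, 17.6, 18.8 and 18.3 CPM in KO. All KO libraries were below WT (-0.43, SE 0.12, adjusted p = 0.0804), where groups did not overlap in either direction for 11.9% of genes. Ern1 passed in DESeq2 (0.0196) and in the fit of all 32 libraries (0.0389). The smallest p of the list at the earlier stages belonged to Ppp1r15a (GADD34, a phosphatase subunit that reverses eIF2-alpha phosphorylation) at E12.5, at -0.44 (adjusted p = 0.875). At E14.5 it belonged to Atf6, at -0.16 (0.376), and at E16.5 to Eif2ak3, which encodes PERK, at 0.19 (0.342). The 18 ER chaperones and folding enzymes had medians of -0.04, 0.01, -0.04 and 0.17 over the stages, and 14 of 18 had the higher mean in KO at PND0. Their summed level there was 2191, 2251, 2299 and 1806 CPM in WT and 2213, 2519, 2642 and 2168 CPM in KO, so WT replicate 4 was again the lowest. The smallest p of the list belonged to Ero1lb at E12.5 (0.30, adjusted p = 0.875) and E16.5 (-0.21, 0.367), Hsp90b1 at E14.5 (0.09, 0.33) and Dnajc10 at PND0 (-0.26, 0.094). Dnajc10 passed in DESeq2 (0.0431) and in the fit of all 32 libraries (0.0234). Of the 12 genes of ER-associated degradation, those with the smallest p before birth were Edem2 at E12.5 (0.21, adjusted p = 0.875), Derl2 at E14.5 (0.14, 0.368) and Sel1l at E16.5.

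Genes downstream of ATF4 gave no call. The 15 genes of amino acid synthesis and transport had medians of 0.06, 0.05, 0.09 and -0.05, and 11, 10, 11 and 4 of them had the higher mean in KO. At PND0 the smallest p belonged to Slc3a2, the heavy chain of amino acid exchangers, with 93.2, 95.2, 103 and 108 CPM in WT and 123, 122, 148 and 114 CPM in KO. All KO libraries were above WT (0.33, SE 0.0923, adjusted p = 0.0795), where groups did not overlap in either direction for 11.9% of genes. Slc3a2 passed in DESeq2 (adjusted p = 0.0268), as did 921 of all genes at that stage. Its partner Slc7a5, a carrier of large neutral amino acids, had the smallest p at E16.5, at 106, 98.8, 101 and 100 CPM in WT and 120, 112, 124 and 115 CPM in KO (0.20, SE 0.0535, adjusted p = 0.261), and passed in DESeq2 (0.038). Psat1 at E12.5 (0.17, adjusted p = 0.875) and Psph at E14.5 (-0.16, 0.598), both of serine synthesis, led the earlier stages. Of the 12 transfer RNA synthetases, 11 had the higher mean in KO at E12.5 and 4 at PND0 (medians 0.12 and -0.01). The smallest p belonged to Cars at E12.5 (0.29, adjusted p = 0.875), Gars at E14.5 (0.06, 0.617), Aars at E16.5 (0.13, 0.362) and Eprs at PND0 (-0.21, 0.179). Of 11 other targets of ATF4 and CHOP, 9 were abundant enough to test. Atf5 had the smallest p at E12.5 (-0.23, adjusted p = 0.882) and PND0 (0.31, 0.293), Cebpb at E14.5 (0.50, 0.643) and Jdp2 at E16.5 (0.20, 0.492).

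Between WT stages many genes of these lists changed. In the first step 11 of 18 ER chaperones and folding enzymes fell and 1 rose, Pdia6 with the smallest p (332 to 195 CPM), beside 30.5% of all genes falling and 27.3% rising. Hspa5 fell in the same step. So did 5 of 6 meninges and fibroblast markers, whose median summed level was 2042 CPM at E12.5 and 698 CPM at E14.5, and 2 of 6 erythroid markers. The part of these cells in the fall of the chaperones was not tested. Of the 9 other ATF4 and CHOP targets tested, 5 fell in that step, and 5 rose and 1 fell in the next, when 29.3% of all genes rose and 28.2% fell. Of the 13 sensors and kinases, 8 fell and 2 rose from E14.5 to E16.5, when Ern1 went from 34.2 to 22 CPM (log2 change -0.62, adjusted p = 1.29e-05).

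Within groups, the 10 genes did not vary as 1 set. For each gene the deviation of its log2 CPM from its group mean was taken in the 32 libraries, which share a depth and a composition each, and correlations of these deviations are descriptions. Of the 45 pairs among the 10 genes, 28 had a positive Pearson r, with a median of 0.06. Hspa5 went with Atf3 (r = 0.70, Spearman rho 0.59), Ddit3 (0.67, rho 0.53) and Xbp1 (0.59, rho 0.63), and without E12.5 KO replicate 1 and PND0 WT replicate 4 these r were 0.64, 0.60 and 0.32. Hspa5 and Atf4 were near 0 (r = 0.03, rho 0.05). Atf4 went with Herpud1 (0.64) and Asns (0.56), but without the same libraries these were 0.10 and 0.05. Over all 45 pairs, leaving those libraries out kept 28 positive and gave a median r of 0.10.

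**Figure D4:**
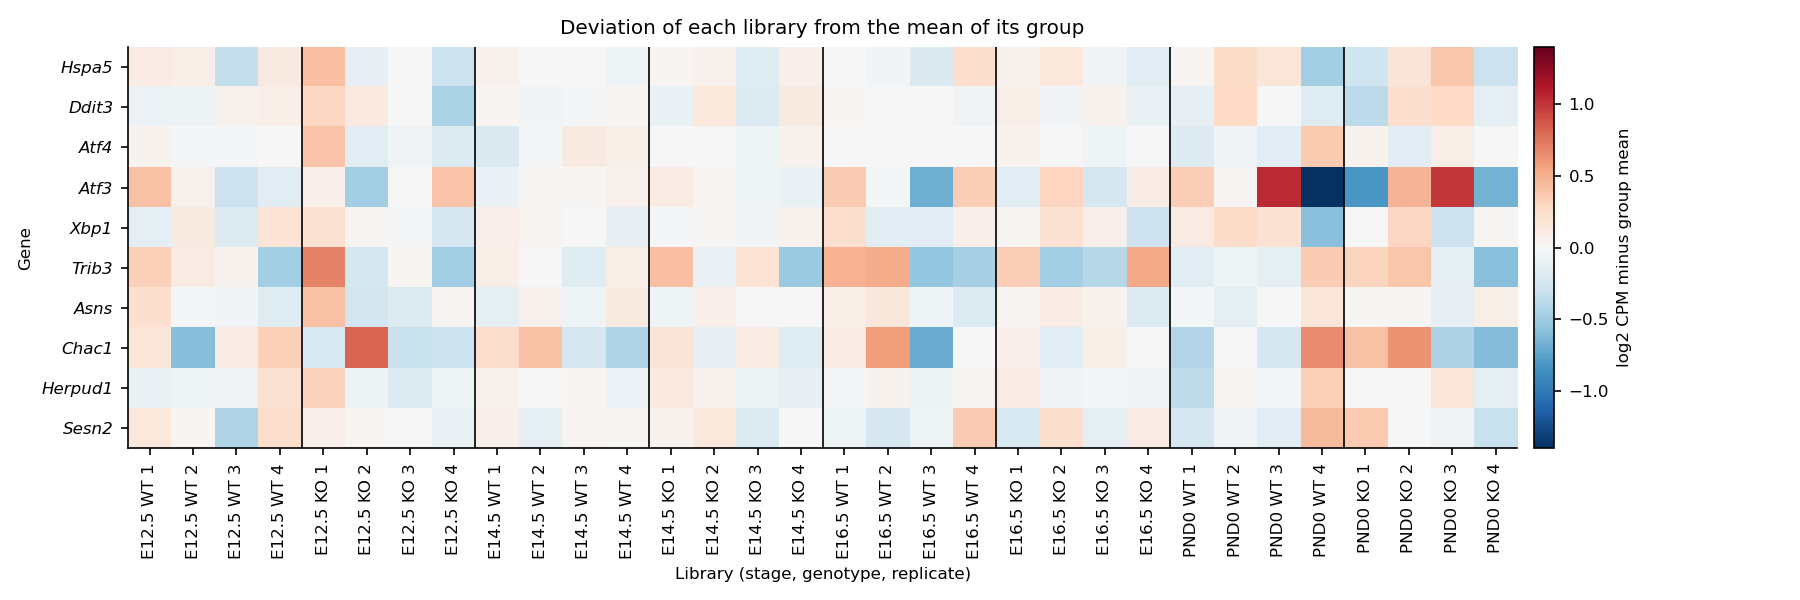
Deviation of log2 CPM from the group mean (colour, red above and blue below) for the 10 genes (rows) in the 32 libraries (columns, 4 per group between the black lines). E12.5 KO 1 is red for most genes, and PND0 WT 4 is blue for Hspa5, Ddit3, Atf3 and Xbp1 and red for the other 6.

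Among 12491 genes searched, all at 5 CPM or more on average, the genes whose deviations were most like those of Hspa5 were the ER chaperones Hsp90b1 (r = 0.91, rho 0.86), Calr (0.90, rho 0.86) and Pdia6 (0.88, rho 0.89). Without E12.5 KO replicate 1 and PND0 WT replicate 4, r was 0.85, 0.83 and 0.84. For Xbp1 they were Hsph1 (0.86), Hspa8 (0.82) and Por (0.82), the first 2 of them cytosolic heat shock genes. Without the same libraries these r were 0.81, 0.64 and 0.73. Atf3 was closest to the immediate early gene Nr4a1 (0.80, rho 0.70), then to Acvrl1 (0.77, rho 0.65) and Xpo1 (0.77, rho 0.40). These r were 0.70, 0.65 and 0.62 without those libraries. The nearest genes of Atf4 were Tmed1 (0.86), Rchy1 (0.85) and Ogfr (0.84), which dropped to 0.64, 0.46 and 0.53 without those libraries. For Asns they were Penk (0.80), Rxylt1 and Cryl1 (both 0.74), for Chac1 Otp (0.71), Pbx3 and Asb4 (both 0.67), and for Trib3 Neat1 (0.72), Ssbp1 (0.66) and Parl (0.62). Ddit3 was nearest to Ilf2 and Chka (both 0.76) and Ppm1g (0.74), Herpud1 to Tmem222 (0.86), Ndufaf3 and Surf1 (both 0.81), and Sesn2 to Ccdc117 (0.79), Nup62 (0.70) and Acsf3 (0.69). For the nearest genes of Asns, Chac1, Trib3, Ddit3, Herpud1 and Sesn2, rho was 0.57 to 0.77. Without those libraries their r was 0.50 to 0.79.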

How the data were processed

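The authors deposited raw counts per gene symbol, 1 table per stage, as whole numbers that are not normalized. Per the submitters' processing notes HISAT2, SAMtools, featureCounts, DESeq2 and build mm10 were used, and the annotation, strand setting and versions are not given in the sources used here. Every genotype comparison used the 8 libraries of 1 stage, and every WT step 8 WT libraries, in edgeR 4.0.16 in R 4.3.3 (TMM, filterByExpr with minimum count 10 and total 15, robust quasi-likelihood F test). P-values were adjusted by Benjamini-Hochberg over all genes tested, with a threshold of 0.05. An F test of 3 contrasts over 32 libraries compared the KO effect between stages. Log2 changes are signed as KO minus WT, or as the later minus the earlier stage, and the SE is the size over the square root of F. Log2 CPM uses a prior count of 2. A count of 0 allows up to 3 counts, for counting error only. No 2 libraries of a group were copies. Positions and the longest transcript lengths come from GENCODE M21 (GRCm38). The 10 genes and the other lists were chosen with earlier results of these data known. Named genes are the 10, Dhcr7, per list and comparison those past the threshold or else of smallest p, and per gene the 3 most alike in deviations. The scripts were tested on simulated data. Alternatives were RLE, no filter, DESeq2 1.42.0, each library left out, a replicate block, all 32 libraries, and covariates or offsets for sex genes, ribosomal RNA and length.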

Additional observations from a re-analysis of the deposited data

Results flagged for a closer look

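In 80 groups of 4 libraries (10 genes, 8 groups), 5 had a library set apart from the other 3 by more than Dixon's critical value of 0.829, and chance flags about 1 group in 20. Hspa5 was lowest in E12.5 WT replicate 3, at 317 CPM against 422 to 436 CPM in the others. Trib3 was highest in PND0 WT replicate 4, at 2.24 CPM against 1.53 to 1.65. Chac1 was highest in E12.5 KO replicate 2, at 2.89 CPM against 1.27 to 1.37. Herpud1 was highest in E12.5 WT replicate 4, at 28.5 CPM against 23.1 to 23.8, and in E16.5 KO replicate 1, at 29.5 CPM against 26.5 to 26.8.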

How the results depend on the processing

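No alternative turned the direction of a called value. In the genotype comparisons 151 of 157 values of the 10 genes at PND0 kept their side of the threshold and 6 passed it newly, while at E12.5, E14.5 and E16.5 all 160, 157 and 154 kept it. Values short of the threshold changed sign in 14, 3, 2 and 18 cases from E12.5 to PND0. Of the 10 genes, the count past the threshold at PND0 was 1 with no filter, 1 in DESeq2, 2 with all 32 libraries and 0 to 1 with 1 library left out. It was 2 with all 32 libraries and 2 to 4 with 1 left out for WT from E14.5 to E16.5, and 8 with no filter for WT from E16.5 to PND0 (5 to 7 with 1 left out). For the change of the KO effect with stage it was 1 in DESeq2 and 0 to 1 with 1 library left out. Ddit3 from E14.5 to E16.5 lost its call in DESeq2 (adjusted p = 0.0664), with no filter (0.16) and with all 32 libraries (0.184), and Xbp1 lost it with all 32 libraries (0.158). Chac1 lost its call from E12.5 to E14.5 without E14.5 WT replicate 2 (0.055). The cause was not tested.

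The counts over all genes moved more. At E12.5, 3 genes passed, 30 in DESeq2, 52 with all 32 libraries and 1 to 5 with 1 library left out. At E14.5, 94 passed, 146 with no filter, 4 with all 32 libraries and 52 to 155 with 1 left out. At E16.5, 8 passed, 233 with no filter, 150 in DESeq2, 3 with all 32 libraries, 4 with the sex-gene covariate and 3 to 14 with 1 left out. At PND0, 250 passed, 1091 with no filter, 921 in DESeq2, 1205 with all 32 libraries, 2 with the ribosomal RNA covariate, 44 with length offsets and 35 to 263 with 1 left out. For the change with stage, 5 passed, 11 with no filter, 346 in DESeq2 and 0 to 797 with 1 left out.

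The data gave no clear sign that replicate numbers pair the libraries. Same-numbered WT and KO libraries had correlations of deviations from -0.28 to 0.30, and 0 to 3 of 8 libraries per stage were closest to their own number. The highest values were 0.27 and 0.30, for replicates 1 and 3 at E12.5. A pairing by litter is not given in the sources used here, and the few libraries per stage limit this check. With the replicate number as a block, 6 genes passed at E12.5, 5 at E16.5 and 0 for the change with stage, and of the 10 genes 1 passed at PND0, Atf4 (0.45, adjusted p = 0.048). Under the block Chac1 from E12.5 to E14.5 (0.0542) and Ddit3 from E14.5 to E16.5 (0.0517) missed the threshold. Depth limits Atf3, Trib3 and Chac1, which had at most 129 counts in a library.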

Other observations

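Sesn2 and Atf3 are also induced through p53, and 8 targets of that factor were measured beside them. In KO against WT 0 of the 8 passed at each stage, where 0.0177% to 1.44% of all genes did. Their medians were 0.08, 0.03, 0.00 and -0.04 on the log2 scale. At an unadjusted p under 0.05 there were 0, 1, 3 and 1 of the 8, beside 4.70%, 8.73%, 11.5% and 18.0% of all genes. The smallest p at E16.5 belonged to Cdkn1a (adjusted p = 0.261). Their summed level at PND0 was 335 to 351 CPM in WT and 328 to 353 CPM in KO. Of 8 cytosolic heat shock genes, 0 passed at each stage (medians -0.01, -0.02, -0.02 and 0.03). Their sum at PND0 was 2336 CPM in WT replicate 4, 2953 to 3281 CPM in the other WT libraries and 2881 to 3116 CPM in KO. The immediate early genes had 0 calls at each stage, and at E16.5 their sum was 89.8 to 111 CPM in WT and 114 to 118 CPM in KO.

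Of the marker lists of brain cell types and neighbouring tissues, 1 gene passed in the genotype comparisons: Olig1, of the oligodendrocyte lineage, was lower in KO at E14.5 (adjusted p = 0.0155). Meninges and fibroblast markers summed to 1431 to 3167 CPM in WT and 681 to 2736 CPM in KO at E12.5. Choroid plexus markers summed to 307 to 611 CPM in WT and 608 to 967 CPM in KO at PND0.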
